A study of Homo sapiens with 6 samples.

Results

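The replication-dependent histone genes were examined in MDA-MB231 cells with and without a hairpin against Ror1. A gene was counted as a member when it was protein-coding and had carried an older symbol starting with HIST1H, HIST2H, HIST3H or HIST4H, and its measured values played no part in the choice. Of 71 such genes in the RefSeq gene table, 36 were matched by their present identifier to the 57445 genes of the deposited table, and the other 35 were not analysed here. Older identifiers of some of the 35 are in the table, so sums and counts refer to the 36 matched genes and may leave out reads of others. The 36 members were 6 H1, 9 H2A, 10 H2B, 6 H3 and 5 H4 genes. On GRCh37, 24 lay on chromosome 6, 11 on chromosome 1 and 1, H4C16, on chromosome 12.

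MDA-MB231 is an established human breast cancer cell line of the triple-negative type. Both groups were infected with a pGIPZ lentivirus, a vector that expresses a short hairpin RNA, and were selected with puromycin at 2 µg/ml. The shCTL cells carried a hairpin without a target and the shRor1 cells a hairpin against ROR1, a receptor tyrosine kinase of the Wnt pathway, and each group had 3 libraries. A single targeting sequence was named for Ror1, so hairpins could not be compared, and no source used here says that the replicates came from separate infections, so p-values measure only the spread between these libraries. The sample labels name the control an empty vector and the molecule poly(A) RNA, whereas the methods name a non-silencing hairpin and a total RNA kit. The control columns are headed by a name that includes DMSO, a solvent that neither the labels nor the methods mention. Columns of a group share 1 header, so libraries are named by their order in the table.

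Replication-dependent histone genes supply the bulk of H1, H2A, H2B, H3 and H4 while DNA is copied in S phase. Their mRNAs are the known exception among those of animals, because they normally end in a conserved stem-loop instead of a poly(A) tail. The stem-loop is bound by SLBP, and the end is cut with the help of the U7 small nuclear ribonucleoprotein, which pairs with the pre-mRNA just downstream. Some of these genes can also give longer, polyadenylated mRNAs, and the replacement variants such as H3.3 and H2A.Z come from other genes with ordinary poly(A) tails. The way RNA is selected for sequencing therefore bears on how these genes are counted.

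The stem-loop was present in 35 of the 36 members, within 100 bases after the stop codon, when searched as a stem of 6 pairs beginning with GG and closed by a loop of 4 bases beginning with TT. It started 23 to 68 bases after the stop codon. The same search found it in 65 of 19833 protein-coding genes, or 0.328%. H2AC11 was the exception, which says only that these letters were not in its window. The members shared 4 forms of the 16 bases, and 1 gene of each form is shown with 5 bases on either side, the 16 bases of the stem-loop being in capitals. They are written as DNA, 5′ to 3′ on the strand of the gene, since this is the element that decides how the mRNA ends.
H1-2: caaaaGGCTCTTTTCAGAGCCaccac
H2BC12: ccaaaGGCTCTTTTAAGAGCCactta
H4C3: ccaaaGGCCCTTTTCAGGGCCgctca
H2AC20: ccaaaGGCTCTTTTTAGAGCCaccca
The stem-loop of H1-2 lay at chr6:26055972-26055987 on the minus strand, that of H2BC12 at chr6:27114145-27114160 on the minus strand, that of H4C3 at chr6:26104545-26104560 on the plus strand and that of H2AC20 at chr1:149858941-149858956 on the plus strand of GRCh37. The form of H1-2 was found in 21 members and that of H2BC12 in 8. The form of H4C3, with a stem richer in G and C, was found in the 5 H4 genes and in no other member. The form of H2AC20 was found in H2AC20 alone.

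The values are TPM, a level per 1000000 transcripts of a library that is corrected for gene length and therefore allows genes to be compared. Every library sums to the same total, the read depth behind a value is not kept, and no counting interval can be given. The cells carried the defining markers of a mesenchymal-like basal line, with a mean level of 2629 TPM for VIM, 439 for CD44, 394 for AXL and 447 for CAV1. The luminal and epithelial markers were low, at 0.138 TPM for ESR1, 0.0033 for PGR, 1.21 for CDH1, 2.61 for ERBB3, 4.19 for GATA3 and 14.4 for EPCAM. ROR1, the targeted gene, had 15.42, 13.49 and 20.56 TPM in shCTL and 9.34, 11.93 and 14.85 TPM in shRor1. These groups overlapped, and the log2 fold change of ROR1 was -0.43 (standard error 0.20, limma with Benjamini-Hochberg adjustment, adjusted p = 0.984). The knockdown was thus not past the threshold at the level of RNA in these libraries. The paper shows it for the Ror1 protein by western blot, which RNA levels do not measure. The second shCTL library stood apart, as described below, and the main comparisons of the histone genes are given with and without it.

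The matched histone genes were present at low levels, and 2 of them held most of their total. Summed over the 36 members, the level was 149.8, 157 and 151.4 TPM in shCTL and 129, 90.2 and 149.7 TPM in shRor1. H2BC12 and H1-2 together made up 60.2% of the mean sum. Only 3 members had a mean of at least 10 TPM over the 6 libraries, and 16 had a mean of at least 1 TPM. A level of at least 1 TPM in every library was reached by 12 members, while 5 were listed at 0 in all libraries. The median member had a mean of 0.807 TPM, at percentile 35.9 of the 19364 protein-coding genes. The mean sum of 138 TPM was 0.0149% of the TPM of all protein-coding genes.

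**Figure D1:**
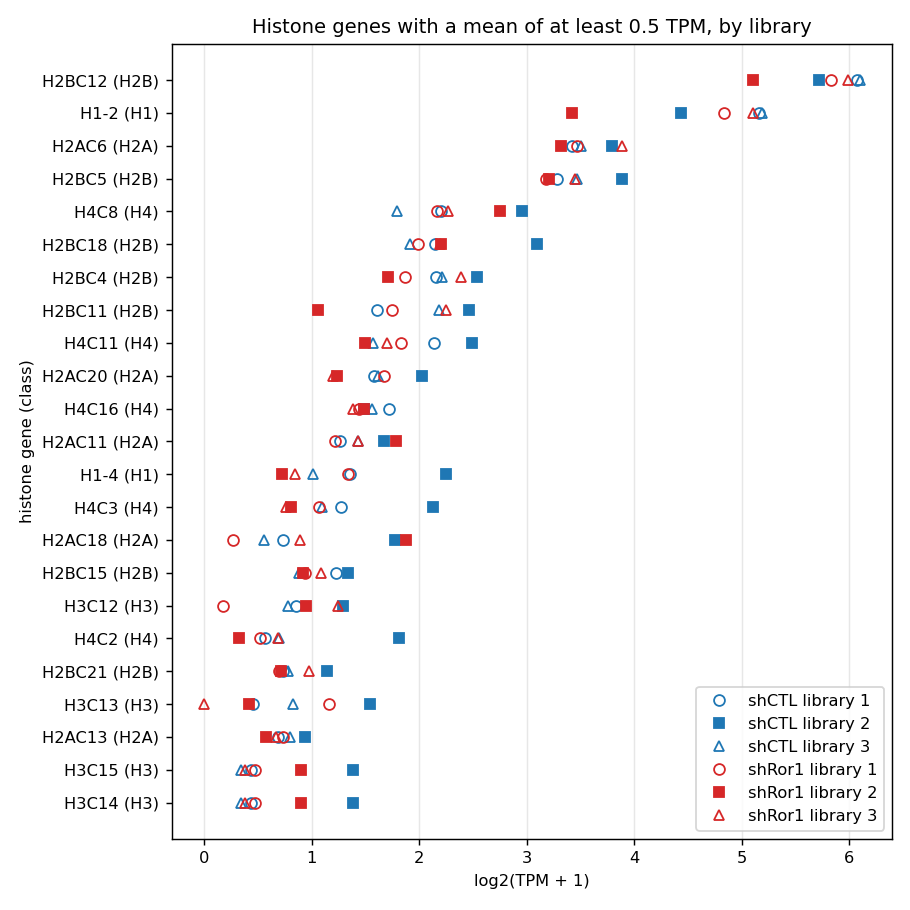
Level of the 23 histone genes with a mean of at least 0.5 TPM, as log2(TPM + 1) on the x axis, with the genes on the y axis ordered by mean and 1 point per library (blue shCTL, red shRor1, filled squares the second library of each group). H2BC12 and H1-2 lie far to the right with their filled squares lowest, while the blue square of the second shCTL library is the highest point of 17 of the 23 genes.

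Among the H2B genes, H2BC12, formerly HIST1H2BK, led with 66.06, 51.71 and 67.36 TPM in shCTL and 55.95, 33.46 and 62.40 TPM in shRor1. The second library was the lowest of either group. H2BC5 followed with 8.69, 13.72 and 10.08 TPM against 8.03, 8.20 and 9.93 TPM. H2BC18 had 3.43, 7.52 and 2.76 TPM in shCTL and 2.97, 3.61 and 3.57 TPM in shRor1, so that a single library, the second of shCTL, lay well above the other 5. H2BC4 and H2BC11 had means of 3.50 and 2.88 TPM. Of the 10 H2B genes, 6 had a mean of at least 1 TPM, and H2BC1, a gene known from the testis, and H2BC26 were listed at 0 throughout.

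The linker histone H1 binds DNA where it enters and leaves the nucleosome, and its members were represented almost entirely by H1-2, formerly HIST1H1C. H1-2 had 34.80, 20.54 and 35.34 TPM in shCTL and 27.52, 9.71 and 33.29 TPM in shRor1. As with H2BC12, the second library was the lowest of either group. H1-4 was next with 1.56, 3.74 and 1.02 TPM against 1.52, 0.65 and 0.79 TPM. The other H1 genes were near 0, with means of 0.0067 TPM for H1-1, H1-3 and H1-5 and of 0.0583 TPM for the testis-specific H1-6.

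Among the H2A genes H2AC6 led, with 9.68, 12.82 and 10.33 TPM in shCTL and 10.02, 8.98 and 13.76 TPM in shRor1. These groups overlapped throughout. H2AC20 had 1.98, 3.06 and 2.07 TPM against 2.19, 1.35 and 1.29 TPM. H2AC11, the member without a stem-loop by the search, had 1.40, 2.18 and 1.70 TPM against 1.32, 2.43 and 1.69 TPM, so its second library was the highest of either group. H2AC1 and H2AC7 were listed at 0 in every library.

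The H3 and H4 genes were low. The 5 H4 genes encode the same protein of 103 residues. H4C8 was the highest of them with 3.60, 6.76 and 2.46 TPM in shCTL and 3.47, 5.71 and 3.82 TPM in shRor1. H4C11 followed with 3.39, 4.6 and 1.97 TPM against 2.56, 1.81 and 2.24 TPM. H4C16 varied least of the H4 genes, from 1.79 to 2.29 TPM in shCTL and from 1.61 to 1.8 TPM in shRor1. None of the 6 H3 genes reached a mean of 1 TPM, and the highest, H3C12, had 0.80, 1.44 and 0.71 TPM against 0.13, 0.92 and 1.37 TPM. The testis-specific H3-4 had a mean of 0.118 TPM, and H3C4 was listed at 0.

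Ordered by mean level, H2BC12 and H1-2 stood first and second in each of the 6 libraries. Their ranges over the libraries, 33.46 to 67.36 TPM and 9.71 to 35.34 TPM, still overlapped each other. H2AC6 and H2BC5 were the next pair, with overlapping ranges of 8.98 to 13.76 TPM and 8.03 to 13.72 TPM. Every library of H2BC5 lay above every library of H4C8, whose highest value was 6.76 TPM. From H4C8 downwards, neighbours in the order overlapped.

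The replacement variants, whose mRNAs carry poly(A) tails, were far more abundant than the members. The 12 variant genes listed summed to a mean of 3555 TPM, 25.8 times the mean sum of the 36 members. H3-3B, which encodes the replacement histone H3.3, had a mean of 1278 TPM, and H2AZ1, which encodes H2A.Z, had 1126 TPM. Each of these single genes exceeded all members together. By contrast, MACROH2A2 and H3-5 had means of 0.213 and 0.888 TPM. H2AJ, at 29.33, 17.72 and 33.19 TPM in shCTL and 25.86, 14.39 and 31.89 TPM in shRor1, was also lowest in the second library of each group, as were H2BC12 and H1-2.

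**Figure D2:**
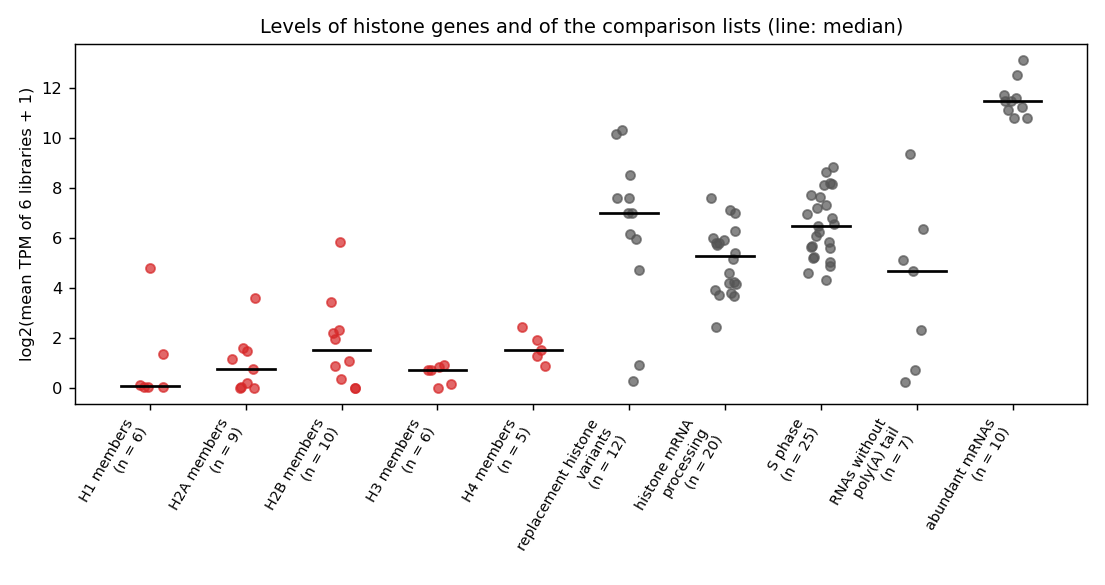
Mean level of single genes over the 6 libraries, as log2(mean TPM + 1) on the y axis, for the 36 histone genes by class (red) and for the comparison lists (grey), with the median of each as a line. The medians of the histone classes lie below those of the variants (125 TPM), the processing genes (37.3 TPM) and the S-phase genes (87.4 TPM).

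The genes that serve histone synthesis were present at ordinary levels. SLBP, which binds the stem-loop, had a mean of 135 TPM with a range over the libraries from 124 to 158 TPM. NPAT, the coactivator that drives histone transcription, had 14.0 TPM, CASP8AP2 17.7 TPM, and LSM10 and LSM11 of the U7 particle 33.98 and 4.35 TPM. All 20 processing genes matched in the table passed the filter on low values, with means from 4.35 to 190 TPM. The 25 S-phase genes had means from 18.8 to 453 TPM, among them PCNA, the sliding clamp of DNA polymerase, with 295 TPM, and TYMS, thymidylate synthase, with 453 TPM. All members except H2BC12 and H1-2 had means below that of POLA1, the lowest of the 25 S-phase genes.

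Whether the libraries were selected for poly(A) cannot be read from the histone genes alone, since all 6 were made with 1 kit and no library with the other selection was measured. RNAs that lack a poly(A) tail were listed next to the members for comparison. Of 13 such RNAs on the list, 7 were matched. RN7SL2, an RNA of the signal recognition particle, had a mean of 654 TPM, and RN7SK, the RNA that holds the elongation factor P-TEFb, had 33.9 TPM. MALAT1 and NEAT1, nuclear RNAs whose long forms end in an A-rich stretch copied from the genome and not in an added tail, had 24.7 and 79.4 TPM, and NEAT1 also has a short form with a tail. TERC, the RNA of telomerase, had 0.612 TPM. Among mRNAs with a tail, GAPDH had 5818 TPM and EEF1A1 8762 TPM. Between 6.79% and 9.09% of the TPM of a library lay outside protein-coding genes. The part of RNA selection in the low level of the histone genes was not tested.

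The members were then divided by whether an annotated protein-coding transcript runs past the stem-loop, as a polyadenylated form would. Transcripts of other types were not considered. In GENCODE 44 on GRCh37, 10 members had a protein-coding transcript that ran more than 50 bases past the stem-loop. Among them were H2AC6, H2BC5, H2BC18, H2BC4 and H2BC11. Of these 10, 7 had a mean of at least 1 TPM, and their median was 2.045 TPM. Of the 26 members without such a transcript, 9 had a mean of at least 1 TPM, and their median was 0.648 TPM. H2BC12 and H1-2, the highest members, were among the 26, as was H2AC11, in which no stem-loop was found. H4C8, H4C16 and H2AC1 were also among the 26, although their annotated genes extend well past the stem-loop. The gene H4C8, for example, reaches chr6:26277837 on the minus strand, with its stem-loop at chr6:26285359-26285374. The division therefore holds for protein-coding transcripts only. Leaving out H2AC11, 8 of 25 had a mean of at least 1 TPM, and the median was 0.63 TPM. An AATAAA or ATTAAA signal for a poly(A) tail was searched in the last 40 bases of annotated protein-coding transcripts. It was found for 8 of the 36 members, or 22.2%, against 82.5% of the 19833 protein-coding genes. Among the 8 was H4C11, which had no transcript past the stem-loop. Its signal came 16 bases after the stop codon, before its stem-loop at 23 bases. H2AC6, H2BC18 and H2AC18 had a longer transcript but no signal at its end. In the genome the first such signal came 56 bases after the stop codon of H1-2 and 65 bases after that of H2BC5, whereas none was found within 1000 bases for H2BC12. Which 3′ end the reads came from cannot be read from values per gene, and the groups with and without a longer transcript were not tested against each other.

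**Figure D3:**
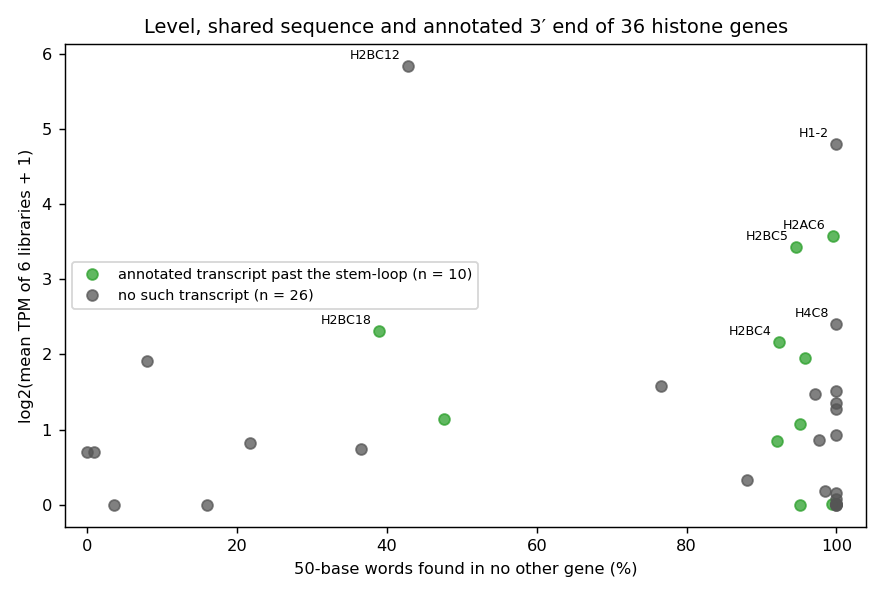
Mean level of each of the 36 histone genes, as log2(mean TPM + 1) on the y axis, against the share of its 50-base words that occur in no other annotated gene on the x axis. Points are green where an annotated protein-coding transcript runs past the stem-loop. The green points H2AC6 and H2BC5 lie high, but the highest points, H2BC12 and H1-2, are grey, and H2BC12 has 42.8% of its words to itself.

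Histone genes resemble each other closely enough that reads of 50 bases can fit several of them, and RSEM divides such reads by an estimate. In the GENCODE 44 transcripts, a later annotation than the one used for counting, 24 members had at least 90% of their 50-base words to themselves and 10 had less than 50%. H2BC12 shared 47.8% of its words with H2BC12L, a gene at 1.83, 1.66 and 2.22 TPM in shCTL and 1.19, 1.51 and 1.91 TPM in shRor1, so the division between the 2 genes is uncertain although H2BC12L was listed far below H2BC12. H4C11 shared 92.1% of its words with H4C12, which was not analysed here. H3C14 and H3C15 shared at least 99.2% of their words with each other and had identical values in all 6 libraries, at 0.35, 1.61 and 0.27 TPM in shCTL and 0.39, 0.86 and 0.30 TPM in shRor1. They therefore count as 1 measurement. H1-2, H1-4, H4C8, H4C16, H4C3 and H3C12 had every word to themselves.

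Of the members, 12 stand head to head with another matched member, of another class, with starts less than 1000 bases apart. Partners among the genes that were not matched were not searched for, so other members may also be paired. H2BC4 and H2AC6 start 218 bases apart on opposite strands and had means of 3.50 and 10.9 TPM, with H2AC6 above H2BC4 in every library. H2BC11 and H2AC11 start 247 bases apart and had 2.88 and 1.79 TPM. H2BC21 and H2AC20 start 235 bases apart and had 0.798 and 1.99 TPM. H2BC13 and H2AC13 had 0.252 and 0.667 TPM. The ranges over the libraries overlapped for H2BC11 and H2AC11 and not for the other three of these pairs. The pairs H2AC25 with H2BC26 and H2AC1 with H2BC1 were at or next to 0 for both partners.

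The promoters of the members were rich in short motifs. RefSeq promoter windows, from 250 bases before to 50 bases after the start on GRCh38.p14, were found for 34 members and had 33 different sequences, since H2AC7 and H3C4 shared 1 window. On either strand, TATAAA was found in 24 of the 34 (70.6%) against 11.95% of all 27305 windows, and CCAAT in 30 (88.2%) against 35.7%. All 30 windows of the H1, H2A, H2B and H3 genes held CCAAT and none of the 4 H4 windows did. ATTTGCAT, the octamer bound by OCT1, was found in 13 (38.2%) against 1.802%, among them 6 of 9 H2A and 6 of 10 H2B windows. The only H3 window that held it was the window shared with H2AC7. The windows shown are those of H2BC12, the highest member, and of H2AC6, the highest of the paired members listed above. Every match to the 3 motifs is in capitals, on either strand and with overlapping matches run together.
H2BC12: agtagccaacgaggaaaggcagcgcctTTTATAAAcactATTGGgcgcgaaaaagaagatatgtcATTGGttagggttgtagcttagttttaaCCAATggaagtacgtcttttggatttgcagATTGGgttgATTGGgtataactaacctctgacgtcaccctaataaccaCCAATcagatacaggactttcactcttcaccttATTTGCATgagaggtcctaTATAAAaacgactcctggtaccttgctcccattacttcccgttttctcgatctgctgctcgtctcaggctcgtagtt
H2AC6: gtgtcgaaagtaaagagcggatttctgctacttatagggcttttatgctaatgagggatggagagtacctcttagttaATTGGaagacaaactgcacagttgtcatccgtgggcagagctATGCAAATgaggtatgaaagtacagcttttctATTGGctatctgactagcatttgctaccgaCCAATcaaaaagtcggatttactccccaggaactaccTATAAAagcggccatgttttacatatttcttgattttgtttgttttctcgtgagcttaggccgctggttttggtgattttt
The window of H2BC12 spans chr6:27146809-27147108 on the minus strand and that of H2AC6 chr6:26123922-26124221 on the plus strand of GRCh38.p14. A match of letters is a description and does not show that a factor binds there.

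The second shCTL library held the highest value of 17 of the 23 members with a mean of at least 0.5 TPM, and all 17 were among the 21 members with a mean from 0.5 to 15 TPM. Of 5705 protein-coding genes in the same range of means, 6.15% were highest in that library. The mean includes that library, and H4C2, H3C14 and H3C15 would not have reached 0.5 TPM from the other 5. H3C14 and H3C15 are 1 measurement, but both are included here and in the H3 sum below. Of the 15 members tested between the groups, 10 were highest in the second shCTL library, against 5.21% of all genes tested. Relative to the mean of the other 5 libraries, the level of the 23 members there had a median ratio of 1.77. For the 15 members tested the median ratio was 1.53, against 0.936 for all genes tested. H4C2, an H4 gene, had 0.48, 2.51 and 0.62 TPM in shCTL and 0.43, 0.25 and 0.61 TPM in shRor1, and it had the highest ratio, 5.25. H1-2 had the lowest, 0.730. Summed over the H3 genes, the level was 1.93, 6.62 and 2.39 TPM in shCTL and 2.20, 3.06 and 2.04 TPM in shRor1, and over the H4 genes it was 11.17, 19.03 and 8.14 TPM against 9.27, 10.32 and 8.97 TPM.

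Some RNAs of other kinds stood out in the same library and others did not. RN7SK had 7.19, 156.44 and 8.85 TPM in shCTL and 9.11, 11.02 and 10.51 TPM in shRor1. MT-RNR1, a ribosomal RNA of the mitochondrion, had 554, 1089 and 712 TPM in shCTL and 502, 583 and 631 TPM in shRor1. RN7SL2 had 565, 1017 and 246 TPM in shCTL and 244, 1097 and 753 TPM in shRor1, so it was high in the second shRor1 library as well. MT-RNR2, the other mitochondrial ribosomal RNA, had 2100 TPM in the second shCTL library, below the 2110 TPM of the third shCTL and the 2189 TPM of the third shRor1 library. Relative to the mean of the other 5 libraries, the level in the second shCTL library was 0.430 for RNU6ATAC, 0.780 for NEAT1 and 0.859 for MALAT1. The share of TPM outside protein-coding genes was 9.09% in the second shCTL library and at most 7.28% in the other 5. The variants did not stand out there, with a sum of 3479 TPM within the range of 3278 to 3687 TPM of the other libraries. The part of these RNAs in the histone levels was not tested.

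**Figure D4:**
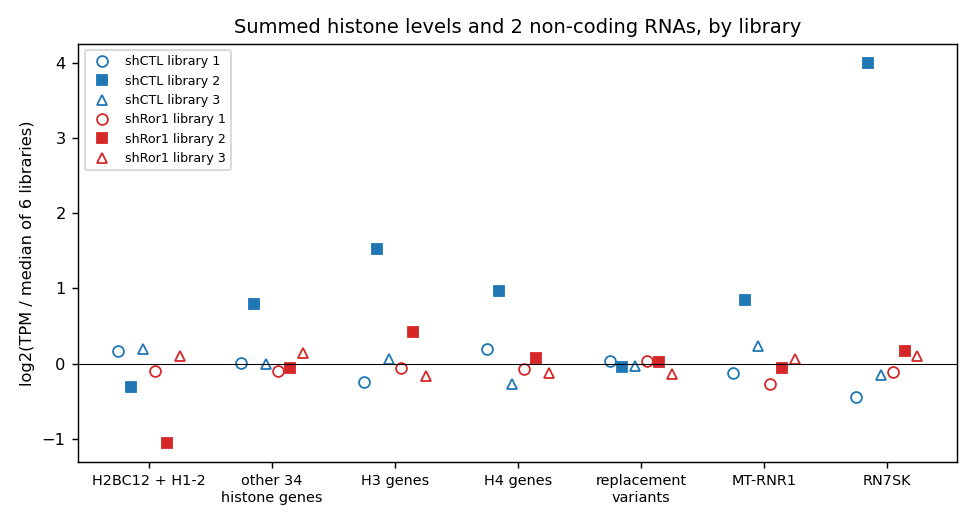
Level in each library relative to the median of the 6 libraries, on a log2 scale on the y axis, for summed histone genes, the replacement variants, MT-RNR1 and RN7SK (blue shCTL, red shRor1, filled squares the second library of each group). The blue square of the second shCTL library is the highest for the other 34 histone genes, the H3 and H4 genes, MT-RNR1 and RN7SK, and the second lowest for H2BC12 and H1-2.

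H2BC12 and H1-2 followed another pattern than the sum of the remaining members. Their sum was 100.9, 72.3 and 102.7 TPM in shCTL and 83.5, 43.2 and 95.7 TPM in shRor1, lowest in the second library of each group. The other 34 members summed to 48.9, 84.8 and 48.7 TPM in shCTL and 45.5, 47.0 and 54.0 TPM in shRor1, with the second shCTL library alone above 54.0 TPM. Because these departures went in opposite directions, the sum over all members hid both in the shCTL group, where it varied by only 3.79 TPM (SD, n = 3) around 153 TPM. Single members did not all follow the sums. H4C16 was also lowest of shCTL in the second library. The second shRor1 library was the lowest for 9 of the 23 members with a mean of at least 0.5 TPM, H2BC12 and H1-2 included.

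No histone gene passed the test between shRor1 and shCTL. The test was limma on log2(TPM + 1) over the 16554 genes that reached 1 TPM in 3 or more libraries, a filter that 15 of the 36 members passed. After Benjamini-Hochberg adjustment 0 of the 15 members were called at 0.05, as were 0% of all genes tested. At an unadjusted p below 0.05, 0 of the 15 members were found by limma, against 2.31% of all genes higher and 0.544% lower in shRor1, or 472 genes in all. The adjusted p of the members ran from 0.984 to 0.994. In bulk RNA, a smaller share of cells in S phase and less histone mRNA per cell could not have been told apart.

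On the log2(TPM + 1) scale, 13 of the 15 members had a lower and 2 a higher mean in shRor1, and their fold changes ran from -0.62 to 0.08. The median was -0.31, against 0.05 for all genes tested. H4C3 and H1-4, with the largest falls, passed the filter only through their shCTL libraries. Without the filter, 24 of 31 members were lower and the median was -0.15. Without the second shCTL library the median was -0.20, with 10 of 14 members lower. Without the second shRor1 library it was -0.17, and without the second library of both groups it was -0.07. The size of the median thus moved with the second libraries, while its sign did not.

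H4C3, formerly HIST1H4C, came nearest to the threshold. It had 1.41, 3.37 and 1.14 TPM in shCTL and 1.10, 0.75 and 0.69 TPM in shRor1. Of the shRor1 libraries only the first reached 1 TPM, so H4C3 passed the filter through shCTL, where it was higher. The means were 1.97 ± 1.22 TPM and 0.847 ± 0.221 TPM (SD, n = 3 each). The groups did not overlap, and the gap between them was narrow, from 1.10 to 1.14 TPM. Its log2 fold change was -0.62 (standard error 0.27, limma p = 0.0526, adjusted p = 0.984), and the exact two-sided permutation test gave p = 0.1, the smallest that 3 against 3 libraries allow. Without the second shCTL library the log2 fold change was -0.31. Leaving out a library cannot make separate groups overlap, so their separation there adds nothing. H4C3 was the only member of the 15 whose groups did not overlap with shRor1 lower, where 1.3% of all genes tested did so, and 0 members did so with shRor1 higher, where 6.48% of all genes did. With 1 library left out, fewer values had to lie apart. The count with shRor1 lower was then larger, as was the share of all genes. It was 4 of 14 members (H1-2, H4C3, H4C16 and H2BC12) without the second shCTL library, where 4.02% of all genes tested did so, and 4 of 15 (H1-4, H4C3, H4C11 and H2BC15) without the third shCTL library, where 3.48% did.

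**Figure D5:**
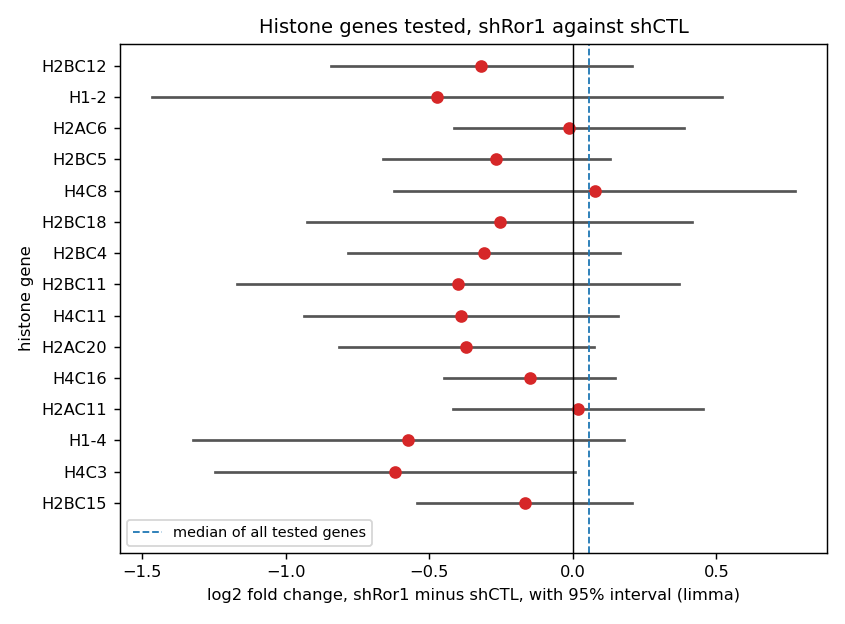
Log2 fold change of the 15 histone genes tested, shRor1 minus shCTL on the log2(TPM + 1) scale on the x axis, with the 95% interval from limma as a line and the median of all genes tested dashed. The intervals of all 15 genes include 0, and the points run from -0.62 (H4C3) to 0.08 (H4C8).

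The mean of H2BC12 was 61.7 ± 8.68 TPM in shCTL and 50.6 ± 15.2 TPM in shRor1, and that of H1-2 was 30.2 ± 8.39 TPM and 23.5 ± 12.3 TPM (SD, n = 3 each). H2BC12 had a log2 fold change of -0.32 with a 95% interval from -0.84 to 0.21, and H1-2 had -0.47 with an interval from -1.47 to 0.52. Without the second shRor1 library the value was -0.05 for H2BC12 and 0.042 for H1-2, so the size of the former and the direction of the latter rested on that library. H2AC6 had -0.01 (interval from -0.42 to 0.39), the smallest difference of the 15 members. H4C8 had 0.08 (interval from -0.62 to 0.77). H1-4 had -0.57 (interval from -1.32 to 0.18), H2AC20 -0.37 (interval from -0.82 to 0.07) and H4C11 -0.39 (interval from -0.94 to 0.16). Without the second shCTL library these values were -0.22 for H1-4, -0.23 for H2AC20 and -0.18 for H4C11, each moved by over 1.5 times. These intervals leave room for changes of either sign in every member named, so the absence of calls does not show that the groups were alike.

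The filter kept members near 1 TPM in or out by small margins. H4C3 and H1-4 reached 1 TPM in every shCTL library but only in the first shRor1 library. H2BC15, just inside, had 1.34, 1.52 and 0.84 TPM in shCTL and 0.91, 0.89 and 1.12 TPM in shRor1. H3C12, just outside, reached 1 TPM in 2 libraries. H2AC18, also outside, had 0.66, 2.41 and 0.47 TPM in shCTL and 0.20, 2.68 and 0.85 TPM in shRor1, highest in the second library of each group.

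The genes around the histones in the pathway showed no calls either. Of 20 tested genes for histone transcription and processing, 8 were higher and 12 lower in shRor1, 0 at an unadjusted p below 0.05 by limma and 0 after adjustment. SLBP had 134, 142 and 124 TPM in shCTL and 127, 158 and 126 TPM in shRor1, a log2 fold change of 0.03 (standard error 0.11). Of 25 tested S-phase genes, 6 were higher and 19 lower, with a median of -0.02 and again 0 at an unadjusted p below 0.05. Of 12 histone chaperones, which carry histones to DNA, 6 were higher and 6 lower with 0 at that threshold, and of 10 tested replacement variants 6 were higher and 4 lower with 0 at that threshold.

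The study names, outside its main text, 3 histone genes beyond the 36, under older identifiers that are in the table. In MDA-MB231 cells it reports as differentially expressed only AGR2 and a gene of an uncharacterized protein. These 3 histone genes were therefore not reported as changed by the Ror1 hairpin. HIST1H2AE, HIST1H2BG and HIST1H4E had at most 0.07 TPM in any library.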

How the data were processed

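RNA of 3 shCTL and 3 shRor1 libraries of MDA-MB231 cells was sequenced by the authors as single, strand-specific reads of 50 bases. The submitters' processing notes name CASAVA 1.8.2, FastQC 0.10.0, STAR and RSEM 1.2.5, and the methods name GRCh37 with Ensembl 73 for mapping. The authors deposited gene-level TPM with 2 decimals, although the table is called expected counts. Since all columns sum to the same total, no count model was used. TPM hides depth, so no counting error is given. No column was left out.

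Genes that reached 1 TPM in 3 or more libraries were tested as log2(TPM + 1) with limma 3.58.1 in R 4.3.3, a mean-variance trend, and adjustment by Benjamini-Hochberg at 0.05, and the procedure was tested on simulated data. A pseudocount of 1 understates changes of low genes. Single genes had an exact two-sided permutation test. Symbols came from GENCODE 44 on GRCh37 and RefSeq synonyms. Promoter windows came from RefSeq on GRCh38.p14, and no coordinates were converted. Members, gene lists and tests were chosen with earlier results of these data known. Named members were the 10 highest by mean, the 2 highest of each class, the 5 with the smallest p, those next to 1 TPM and those with a near-identical copy, and other members were named to account for their class. Alternatives were other filters, pseudocounts and scalings, summed near-identical members, no trend, array weights and leaving out libraries. Those chosen after the data were seen were leaving out the second library of both groups, leaving out each library for the overlap of groups, and leaving H2BC12 and H1-2 out of the sums.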

Additional observations from a re-analysis of the deposited data

How the results depend on the processing

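Under all 15 alternative fits 0 histone genes were called. Over all genes, leaving out 1 library gave from 0 to 1 calls, the 1 being RPL39P3 without the third shRor1 library. At an unadjusted p below 0.05 by limma, 0 members became 1, H4C3 each time, with a pseudocount of 0.1, quantile normalization, median ratio scaling or protein-coding genes only. Leaving out 1 library gave from 0 to 3 members, with 3 (H1-4, H4C3 and H4C11) without the third shCTL library, 1 (H2AC20) without the first shRor1 library and 1 (H2BC4) without the third shRor1 library. The median log2 fold change of the members stayed below 0, from -0.38 to -0.17 with 1 library left out, and from -0.36 to -0.15 under the other planned settings. Quantile normalization and median ratio scaling moved the median of all genes tested from 0.05 to 0.0015 and 0.0006. With protein-coding genes only, 2 members (H4C3 and H4C16) did not overlap with shRor1 lower, against 1 with all genes and from 2 to 4 with 1 library left out, and the summed level in shCTL was 166 instead of 153, on TPM rescaled to these genes. Without H2BC12 and H1-2, the sums were 60.8 TPM in shCTL and 48.8 TPM in shRor1. With 1 library left out, the mean sum ran from 150.6 to 154.2 TPM in shCTL and from 109.6 to 139.3 TPM in shRor1.

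Of the 12 members followed through the alternatives, 8 kept their direction, and 8 of 160 values reversed. H4C8 was at -0.0112 under quantile normalization. With 1 library left out, H2BC12 ran from -0.49 to -0.05, H1-4 from -0.84 to -0.22, H4C11 from -0.64 to -0.18, H4C8 from -0.19 to 0.40, H1-2 from -0.80 to 0.042, H2AC6 from -0.18 to 0.10 and H2BC18 from -0.49 to 0.10. The adjusted p of the 12 members ran from 0.454 to 1. The cause of these changes was not tested. No paired analysis was possible because no replicate number is attached to any column. Depth per value is unknown, and members near 1 TPM rest on few reads.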
